A study of Homo sapiens with 12 samples.

Results

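The 40 genes described here are interferon-stimulated genes and antigen presentation genes, chosen by name as a module that reports the interferon tone of the tumor cells themselves. Each of the 40 symbols matched 1 of the 58302 Ensembl identifiers of the count table through GENCODE v44. Of these members, 31 passed the filter on low counts, which kept 17188 genes in all, and only those 31 were tested. The other 9 (IFI27, IFI44, IFI44L, IFIH1, IRF7, IRF9, OAS2, OASL and XAF1) were too low and are given by their counts. The members were sorted by role into signal transduction and transcription (4), RNA sensing and RNA binding (11), ISG15 conjugation and ADP-ribosylation (6), membrane and other effectors (13), and antigen processing and presentation (6).

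RNA was sequenced from MIB1-iKO cells, which are clonal NCIH838 cells, an established human lung cancer line, carrying Cas9 and a guide RNA against the ubiquitin ligase gene MIB1 under the control of doxycycline (Dox). There were 12 libraries, 3 in each of 4 groups. All cells spent 3 days in 50 nmol/L of the BMP receptor kinase inhibitor LDN, without Dox (MIB1 WT) or with 0.5 μg/mL Dox (MIB1 KO), and all then received 10 ng/mL BMP4 for 24 hours. In the BMP-off groups LDN was kept during those 24 hours, and in the BMP-on groups DMSO replaced it, so the BMP-off cells saw BMP4 as well. The labels, which were followed here, give LDN to all cells in those 3 days, whereas a schematic of the study draws it for the cells with Dox alone, in which case KO and WT would also differ in their LDN history. Because Dox and Cas9 were present in each KO library and in no WT library, effects of Dox, of Cas9 cutting and of MIB1 loss cannot be told apart. Nothing in the labels says that the replicates came from separate cultures, so the p values measure the spread between libraries, which may be technical.

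The labels held in these libraries. MIB1 was at 158 ± 16.3 and 162 ± 11.4 CPM (counts scaled to a common library size after TMM, mean ± SD, n = 3) in WT with BMP-off and BMP-on, and at 33.7 ± 1.05 and 32.0 ± 0.986 CPM in KO. The epithelial keratins KRT8 and KRT18 were at 92.7 CPM or above in every library, EPCAM and CDH1 were between 4.93 and 9.83 CPM, and KRT19 had at most 2 counts. EPCAM fell in both BMP responses (log2 fold change -0.56 in WT and -0.61 in KO, edgeR adjusted p = 0.00794 and 0.00152), and KRT8 rose in that of KO (0.61, edgeR adjusted p = 0.00413), and their part in the responses of the members was not tested. Of 4 lung lineage markers, NKX2-1, SFTPB and SFTPC had at most 2 counts in any library, and NAPSA, which passed the filter, was between 0.251 and 1.03 CPM. Of 8 immune cell markers, PTPRC and MS4A1 had 0 counts in all 12 libraries, and CD14, the highest, was between 3.01 and 4.88 CPM. Only 2 of the 8 passed the filter on low counts, and neither passed the threshold in any comparison. Of 4 endothelial and stromal markers, 3 were tested, and in the BMP response of KO cells COL1A1 rose and CDH5 fell. Their summed level, most of it COL1A1, was 14.5 to 20.3 CPM in WT BMP-off, 28.3 to 30.6 CPM in WT BMP-on, 11.9 to 20.3 CPM in KO BMP-off and 33.6 to 41.6 CPM in KO BMP-on, and its part in the BMP responses below was not tested. Total counts per library ran from 19124010 to 29498000. Libraries of a group differed in how their deviations in log2 CPM from the group mean followed the GC content of genes. Spearman's rho across genes, which are not independent replicates, ran from -0.603 in KO BMP-off replicate 2 to 0.586 in KO BMP-off replicate 3. Deviations in a group of 3 cancel out, so these rho values are tied together and do not show GC differences between groups. A GC correction was run as an alternative, and values from it are given beside several of the results that rest on the KO BMP-off group.

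Interferons signal through cell surface receptors and JAK kinases. Type I and III interferons activate the ISGF3 complex, of which STAT2 and IRF9 are subunits and which binds interferon-stimulated response elements (ISREs), and type II interferon acts through GAS elements. The genes switched on in this way encode RNA sensors, antiviral effectors, the ubiquitin-like protein ISG15 with its ligases, and the machinery that cuts peptides and loads them on HLA class I molecules for display to CD8+ T cells.

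Promoter windows of 300 bases (250 before to 50 after the start of transcription, RefSeq, GRCh38.p14) were at hand for 35 of the 40 members. The ISRE core letters GAAANNGAAA, searched on both strands, lay in a window of 24 of these 35 members (68.6%) and in 4.38% of the 27305 genes with windows. The GAS letters TTCNNNGAA, which read the same on both strands, lay in a window of 13 of the 35 members (37.1%) and in 9.38% of all genes. In EPSTI1, IFI27, MX1, BST2 and IFITM1 a GAS match overlaps an ISRE match. The windows of STAT2, HLA-B, HLA-C, UBE2L6, HERC6 and PSMB9 held no ISRE core letters, which says only that these letters are not in these windows. The stretches around the ISRE letters are shown for the members whose values are described most below, with the matched letters in capitals and each sequence read 5′ to 3′ on the strand of its gene.
DTX3L, chr3:122564302-122564371, plus strand: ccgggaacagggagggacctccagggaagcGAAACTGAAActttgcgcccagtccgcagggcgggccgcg
PARP9, chr3:122564302-122564371, minus strand: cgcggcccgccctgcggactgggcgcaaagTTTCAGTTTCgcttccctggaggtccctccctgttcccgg
PARP14, chr3:122680780-122680849, plus strand: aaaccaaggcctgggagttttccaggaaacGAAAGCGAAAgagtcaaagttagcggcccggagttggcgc
EPSTI1, chr13:42992252-42992321, minus strand: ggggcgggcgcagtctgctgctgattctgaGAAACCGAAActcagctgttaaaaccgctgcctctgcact
IFI6, chr1:27672246-27672378, minus strand: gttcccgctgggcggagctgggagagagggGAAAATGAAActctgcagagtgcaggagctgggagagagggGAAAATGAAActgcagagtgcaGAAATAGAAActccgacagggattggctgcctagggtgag
B2M, chr15:44711343-44711418, plus strand: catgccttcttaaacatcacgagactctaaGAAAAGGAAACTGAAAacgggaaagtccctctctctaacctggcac
DTX3L and PARP9 are head-to-head neighbours whose annotated genes overlap by 240 bases, and 1 ISRE match, at positions 122564332 to 122564341 of chromosome 3, lies in both promoters. It begins 6 bases before the start of DTX3L and 41 bases before that of PARP9. PARP14, 105635 bases further along the same chromosome, has its own match 29 bases before its start, and that of EPSTI1 begins 50 bases before its start. IFI6 has 3 matches and B2M has 2 that overlap. Among the 29 tested members with a window, the median log2 fold change to BMP in KO was -0.19 for the 20 with ISRE letters and -0.24 for the 9 without them, and in WT it was -0.23 and -0.13. Split by GAS letters, the median in KO was -0.24 for the 11 members with them and -0.06 for the 18 without, and in WT -0.26 and -0.19. Whether the letters bear on the responses was not tested.

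Members differed in level by several orders of magnitude. On the RPKM scale, which divides by gene length and which the authors computed, B2M, the invariant light chain of HLA class I, was the highest at a mean of 265 over the 12 libraries (range 245 to 294). It was followed by IFITM3 (80.5), a membrane protein that blocks virus entry, UBE2L6 (39.1), the E2 enzyme that carries ISG15, and IFI35 (23.3). STAT2 had a mean of 16.2 RPKM and DTX3L, a ubiquitin ligase that partners PARP9, a mean of 14.0 RPKM. These 6 were the only members with a mean of 10 RPKM or more, and 18 members had a mean under 1 RPKM. The median over the 31 tested members was 4.65 RPKM, against 5.26 RPKM over all tested genes.

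The HLA class I heavy chains were far below their light chain. HLA-B had a mean RPKM that was 1.65% of that of B2M in WT BMP-off, 1.95% in WT BMP-on, 1.64% in KO BMP-off and 2.36% in KO BMP-on. HLA-C was at 2.60%, 2.81%, 2.16% and 3.40% of B2M in the same order. Reads of HLA genes were aligned with at most a few mismatches to the reference alleles and can be shared with other HLA genes, so the levels of HLA-B and HLA-C against B2M are uncertain.

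Of the 4 members of signal transduction and transcription, STAT2 and IRF1, a transcription factor of the response to type II interferon, were well measured, and IRF9 and IRF7 were not. IRF9, the DNA-binding subunit of ISGF3, had a mean of 2.5 counts per library and at most 5, or 0.0538 RPKM. IRF7, which drives interferon production, had a mean of 3.4 counts and at most 6. IFIH1, the sensor of long double-stranded RNA, had at most 7 counts, IFI27 at most 11 and OASL at most 12. IFI44, IFI44L and OAS2 had at most 1 count in any library. XAF1 had 0 counts in all 12 libraries together, and 3 counts of their total allow up to 0.00992 CPM. Among these 9 members, OASL alone passed in any fit. With no filter on low counts it was called lower in the BMP response of KO cells, where it was at 0.314, 0.362 and 0.505 CPM with BMP-off and at 0.153, 0.0522 and 0.155 CPM with BMP-on, which are at most 12 counts per library.

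**Figure D1:**
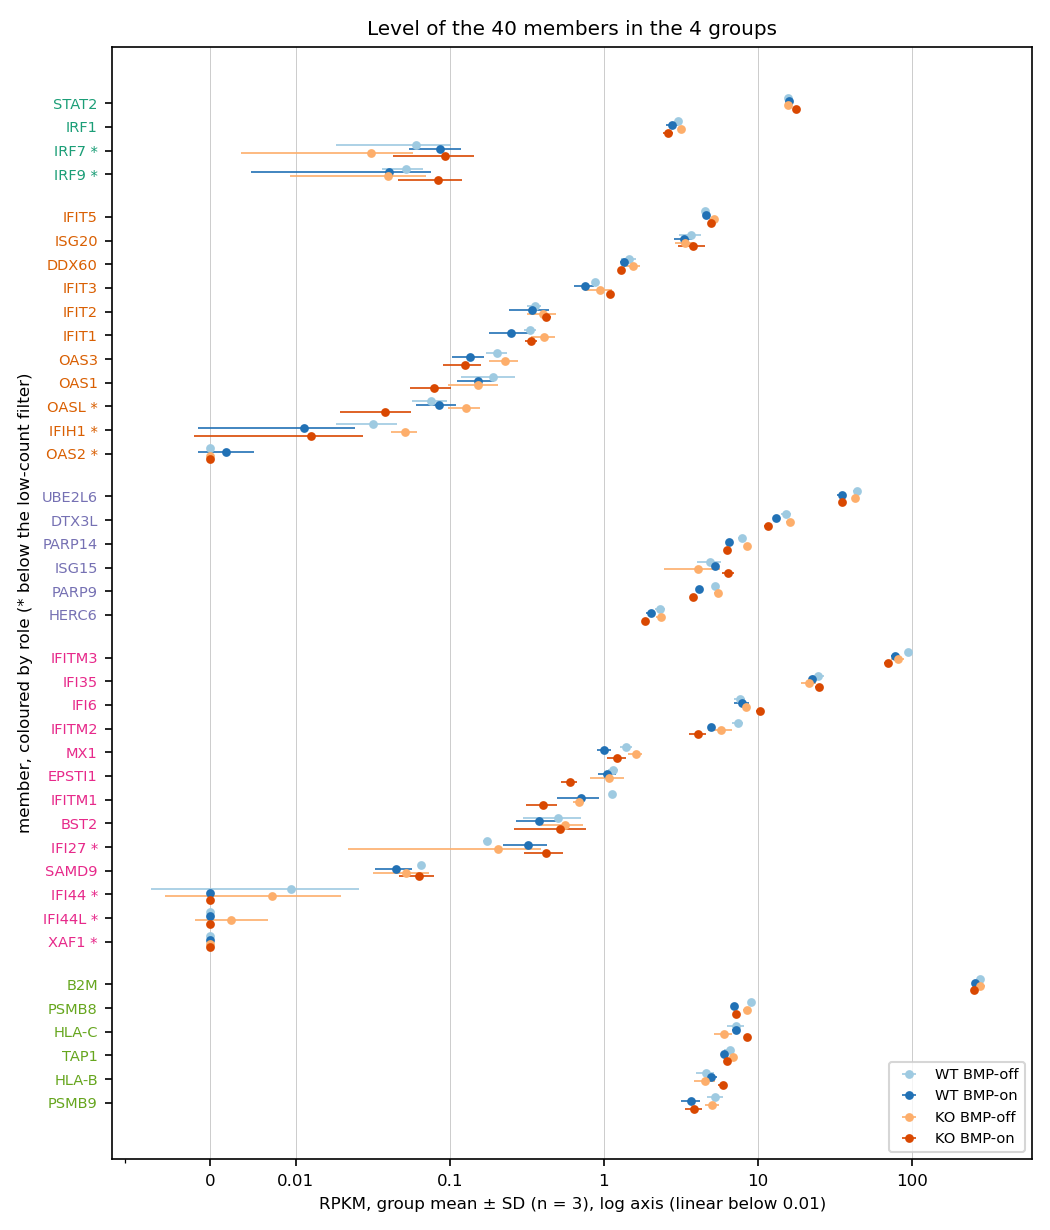
Level of each of the 40 members as RPKM (group mean ± SD, n = 3, log axis that is linear below 0.01), with the 4 groups in different colours and members sorted by level within each role. B2M (mean 265) and IFITM3 (80.5) stand highest, and the members marked with an asterisk, among them IRF9, IRF7 and XAF1, lie below the filter on low counts.

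The first comparison asks how the module responded when BMP signaling was switched on for 24 hours in MIB1 WT cells. Of the 31 tested members 5 fell and 0 rose at an adjusted p of at most 0.05 (edgeR quasi-likelihood test, Benjamini-Hochberg over all tested genes), where 2.01% of all tested genes fell and 1.91% rose. At an unadjusted p under 0.05, 11 members were lower and 0 higher. The share of all genes at that unadjusted cut is not given, so these counts cannot be set against a background. DESeq2 and limma-voom also called 0 members higher. Tested members had a median log2 fold change of -0.19, all tested genes one of 0.00, and 25 of 31 members had a value below 0.

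PARP9, a macrodomain protein that acts with DTX3L in the interferon response, was at 39.9, 38.8 and 38.9 CPM in the WT BMP-off libraries and at 31.8, 31.8 and 30.1 CPM in the WT BMP-on libraries. PARP14, a mono-ADP-ribosyltransferase, was at 63.4, 57.7 and 57.5 CPM and then at 47.9, 50.8 and 50.3 CPM. UBE2L6 was at 71.9, 72.6 and 79.9 CPM with BMP-off and at 55.3, 62.9 and 63.7 CPM with BMP-on. In each of these 3 genes every BMP-on library lay below every BMP-off library. Their log2 fold changes were -0.33 (SE 0.05, adjusted p = 0.00145) for PARP9, -0.26 (SE 0.05, adjusted p = 0.00968) for PARP14 and -0.30 (SE 0.06, adjusted p = 0.0123) for UBE2L6, all by edgeR.

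PSMB8, a catalytic subunit of the immunoproteasome that cuts peptides for HLA class I, was at 12.9, 13.9 and 13.1 CPM with BMP-off and at 9.87, 10.8 and 10.8 CPM with BMP-on. IFITM2, an interferon-induced membrane protein, was at 6.72, 7.999 and 7.59 CPM with BMP-off and at 5.10, 5.20 and 4.99 CPM with BMP-on. Again the groups did not overlap, and the log2 fold changes were -0.34 (SE 0.08, edgeR adjusted p = 0.0186) for PSMB8 and -0.54 (SE 0.14, edgeR adjusted p = 0.0351) for IFITM2. IFITM3 (log2 fold change -0.26, adjusted p = 0.0639), MX1 (-0.44, adjusted p = 0.0753), PSMB9 (-0.50, adjusted p = 0.0821) and DTX3L (-0.20, adjusted p = 0.087) came next and did not pass.

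By role, 3 of the 6 members of ISG15 conjugation and ADP-ribosylation fell, as did 1 of 9 tested membrane effectors and 1 of 6 antigen presentation members, and 0 of 8 tested RNA sensors and 0 of 2 tested regulators passed. The regulators gave log2 fold changes of 0.03 (SE 0.05) for STAT2 and -0.11 (SE 0.09) for IRF1. Those of HLA-B, HLA-C and B2M were 0.14 (SE 0.13), 0.02 (SE 0.11) and -0.10 (SE 0.05), with adjusted p values of 0.658, 0.957 and 0.359 in edgeR. The call for PARP9 held in all 24 alternatives. Without WT BMP-on replicate 1 it was the only member left, 2 passed without WT BMP-off replicate 3, and 3 passed without WT BMP-off replicate 2 or WT BMP-on replicate 3. In contrast, without KO BMP-off replicate 2, which is in neither group of this comparison, 9 members passed, and with a GC correction 10 did, all lower. Leaving that library out changes the shared spread, the TMM factors and the set of genes tested. The number of all genes that fell moved as well, from 346 of 17188 to 560 of 17497 without that library and to 845 of 17188 with the GC correction.

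The same step was taken in MIB1 KO cells. Of the 31 members 8 fell (25.8%) and 4 rose (12.9%), where 10.9% of all tested genes fell and 11.1% rose, so that the share that rose was near that of all genes. The members that fell were PARP9, PARP14, DTX3L, UBE2L6 and HERC6, from the list of ISG15 conjugation and ADP-ribosylation, with EPSTI1, IFITM2 and the RNA sensor OAS3. Those that rose were HLA-B, HLA-C, IFI6 and STAT2. The median log2 fold change of the tested members was -0.21, against 0.01 over all tested genes.

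PARP9 was at 40.1, 42.1 and 39.6 CPM in the KO BMP-off libraries and at 28.6 CPM in each of the 3 KO BMP-on libraries. Its neighbour DTX3L was at 87.1, 93.2 and 87.1 CPM and then at 62.7, 70.2 and 65.2 CPM. PARP14 was at 61.8, 63.8 and 66.3 CPM with BMP-off and at 47.9, 47.6 and 49.7 CPM with BMP-on. With no overlap between groups, the means with BMP-on were 70.5%, 74.1% and 75.7% of those with BMP-off. The log2 fold changes were -0.50 (SE 0.05, edgeR adjusted p = 5.06e-06) for PARP9, -0.43 (SE 0.06, edgeR adjusted p = 8.59e-05) for DTX3L and -0.40 (SE 0.05, edgeR adjusted p = 6.79e-05) for PARP14, and each passed in all 24 alternatives. PARP9 and DTX3L overlap on opposite strands, and whether the strand was used in counting is not given in the sources used here. Reads of their shared bases therefore cannot be assigned to 1 of them. The annotated gene of PSMB9 overlaps those of TAP1 by 8608 bases and of PSMB8 by 544 bases, also on opposite strands. In all, 21 of the 40 members overlap a gene on the opposite strand. The same caution holds for any exon bases they share, also for the PSMB8 call in WT.

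EPSTI1, an interferon-induced gene first described in breast cancer cells exposed to stromal fibroblasts, was at 3.87, 3.45 and 2.40 CPM in KO BMP-off and at 2.07, 1.62 and 1.86 CPM in KO BMP-on. The highest BMP-on library lay just below the lowest BMP-off library. Its log2 fold change was -0.80 (SE 0.19, edgeR adjusted p = 0.00567), and it passed in all 24 alternatives. IFITM2 was at 6.39, 4.46 and 6.48 CPM with BMP-off and at 4.64, 4.28 and 3.61 CPM with BMP-on, so that here 1 BMP-off library lay within the BMP-on range. Its log2 fold change was -0.47 (SE 0.15, edgeR adjusted p = 0.0299), and the call was lost in 5 of 24 alternatives. UBE2L6, at -0.24 (SE 0.07, adjusted p = 0.0139), HERC6, a HECT-type ligase related to the ISG15 ligase HERC5, at -0.28 (SE 0.10, adjusted p = 0.0449), and OAS3, which makes the second messenger for RNase L, at -0.83 (SE 0.25, adjusted p = 0.027), also passed in edgeR. OAS3 rests on a mean of 32.9 counts per library, and HERC6 passed in 9 of 24 alternatives.

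Of the members that rose, HLA-C, an HLA class I heavy chain, was at 8.27, 7.79 and 10.3 CPM in KO BMP-off and at 13.5, 12.8 and 12.4 CPM in KO BMP-on. HLA-B was at 5.90, 6.55 and 8.03 CPM and then at 9.39, 8.36 and 9.59 CPM. In both, all BMP-on libraries lay above all BMP-off libraries, and KO BMP-off replicate 3 was the highest of its group. Their log2 fold changes were 0.55 (SE 0.12, edgeR adjusted p = 0.00277) and 0.43 (SE 0.12, edgeR adjusted p = 0.0222). HLA-C has a GC content of 62.7% in its longest transcript, and with the GC correction its log2 fold change was 0.22 (edgeR adjusted p = 0.054), and that of HLA-B, at a GC content of 52.0%, was 0.40 (edgeR adjusted p = 0.0114). HLA-B lost its call in 5 of 24 alternatives (adjusted p up to 0.117, edgeR without KO BMP-off replicate 1) and HLA-C in 2. The part of the GC trend in the HLA-C value was not tested beyond this.

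IFI6, a mitochondrial and endoplasmic reticulum protein with antiviral activity, was at 6.49, 6.71 and 7.36 CPM with BMP-off and at 9.16, 8.15 and 8.51 CPM with BMP-on. STAT2 was at 49.2, 50.0 and 51.7 CPM with BMP-off and at 60.2, 55.9 and 59.6 CPM with BMP-on. Neither gene had overlapping groups, and their log2 fold changes were 0.33 (SE 0.11, edgeR adjusted p = 0.037) and 0.22 (SE 0.05, edgeR adjusted p = 0.00571). STAT2 passed in all 24 alternatives. IFI6 was lost in 10 of them, among them the GC correction, where its log2 fold change was 0.20 (edgeR adjusted p = 0.165).

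The other antigen presentation members did not rise with HLA-B and HLA-C. B2M was at 636, 650 and 586 CPM in KO BMP-off and at 570, 566 and 609 CPM in KO BMP-on, groups that overlap, with a log2 fold change of -0.10 (SE 0.05, edgeR adjusted p = 0.148). The peptide transporter subunit TAP1 had a log2 fold change of -0.08 (SE 0.08, edgeR adjusted p = 0.521), PSMB8 of -0.22 (SE 0.08, edgeR adjusted p = 0.0575) and PSMB9 of -0.35 (SE 0.15, edgeR adjusted p = 0.106). IRF1 had a value of -0.24 (SE 0.09, edgeR adjusted p = 0.0644). ISG15 itself was at 4.29, 1.93 and 4.71 CPM with BMP-off and at 5.33, 5.85 and 6.41 CPM with BMP-on. Its log2 fold change of 0.68 (SE 0.24, edgeR adjusted p = 0.0577) did not pass, and its lowest library, KO BMP-off replicate 2, is the one with the lowest rho for GC content within its group (-0.603). Without that library 11 members passed, 8 lower and 3 higher, without KO BMP-off replicate 3 13 passed, 7 lower and 6 higher, and without KO BMP-off replicate 1 or with only the KO groups in the fit 7 passed, 5 lower and 2 higher. Of all genes, 16.3% rose and 14.1% fell without KO BMP-off replicate 3, and 7.28% and 7.61% did without replicate 1. Without replicate 2, 8.17% rose and 8.55% fell, and with only the KO groups in the fit 7.03% and 8.11% did. With the GC correction 13 passed, of which 11 were lower and 2, HLA-B and STAT2, were higher, while 11.9% of all genes rose and 12.8% fell. In that fit IFITM3 (log2 fold change -0.39, edgeR adjusted p = 4.77e-07), TAP1 (-0.24, edgeR adjusted p = 0.00816), PSMB8 (-0.29, edgeR adjusted p = 0.012) and IRF1 (-0.29, edgeR adjusted p = 0.016) passed too and HERC6 did not (-0.24, edgeR adjusted p = 0.0734). UBE2L6 was at -0.40, ISG15 at 0.35 and B2M at -0.01.

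**Figure D2:**
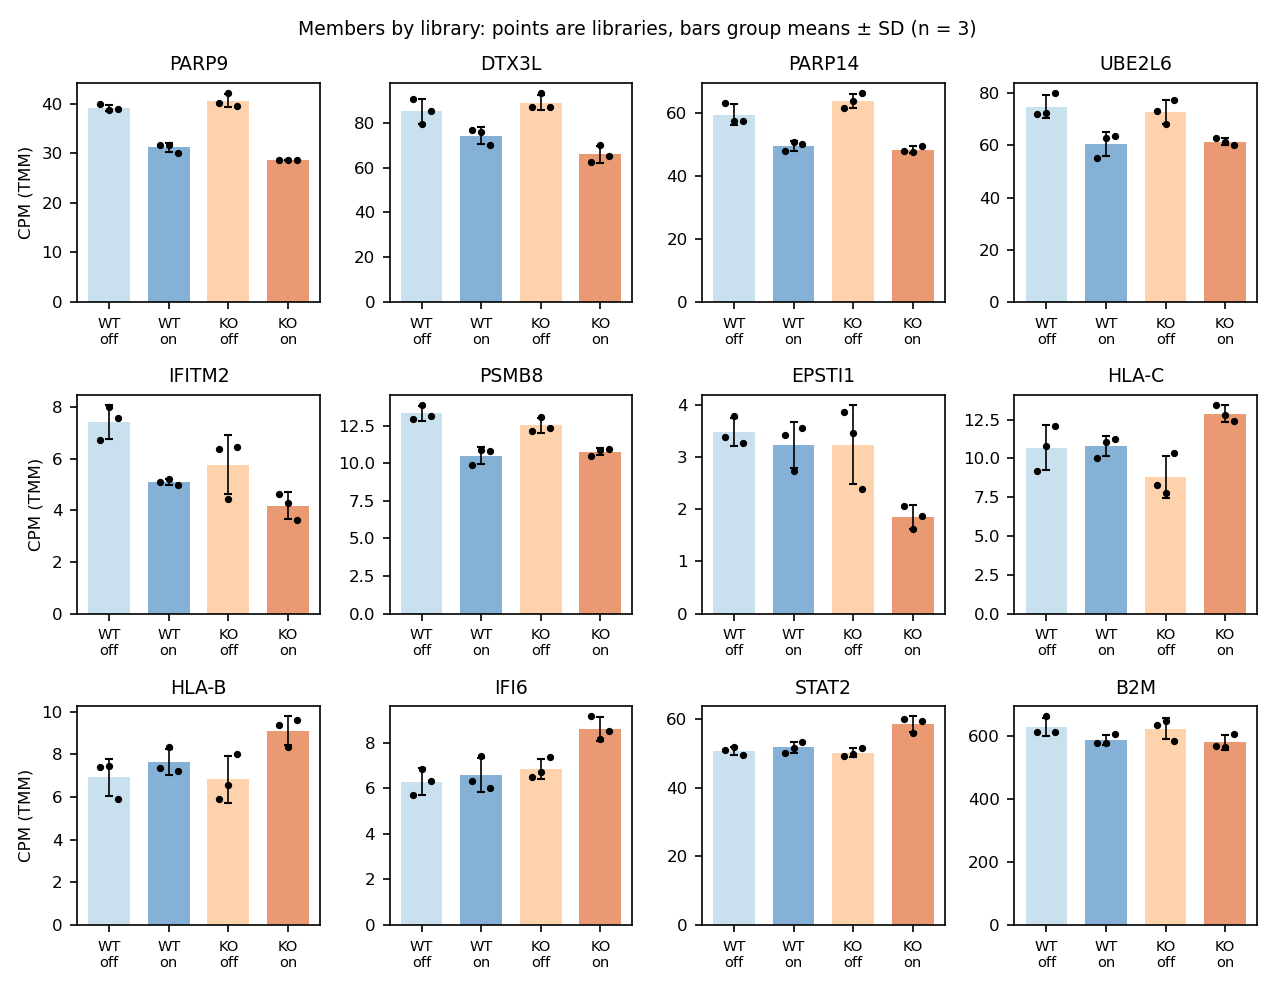
CPM after TMM scaling of 12 members in each library (points), with group means as bars and ± SD (n = 3). PARP9, DTX3L, PARP14 and UBE2L6 stand lower in the BMP-on groups, HLA-C, HLA-B, IFI6 and STAT2 stand highest in KO BMP-on, and B2M lies between 566 and 664 CPM throughout.

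Set side by side, the BMP responses in WT and KO, which share no library, passed the threshold in both cell states for 4 members, PARP9, PARP14, UBE2L6 and IFITM2, each of them lower. Over all tested genes 3.56% passed in both. In all, 13 of the 31 members passed in at least 1 of the responses, where 22.3% of all tested genes did. Of these 13 members, 10 had the larger value, regardless of sign, in KO, against 94.7% of all genes that passed in either. Of the 31 tested members, 20 were negative in both, 5 were positive in both and 6 had opposite signs, against 34.2%, 35.7% and 30.1% of all tested genes. Whether a response differed between KO and WT was tested as the interaction. It passed for 0 of 31 members in edgeR, where 0.0407% of all tested genes passed higher and 0.0524% lower. An unadjusted p under 0.05 was found for 6 members, and the share of all genes at that cut is not given. DESeq2 and limma-voom also called 0 members.

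The members with the smallest adjusted p in the interaction were HLA-C, with a difference between responses of 0.53 on the log2 scale (SE 0.16, edgeR adjusted p = 0.243), IFI35 with 0.37 (SE 0.13, edgeR adjusted p = 0.32) and EPSTI1 with -0.70 (SE 0.25, edgeR adjusted p = 0.339). For STAT2 the difference was 0.19 (SE 0.07), for IRF1 -0.13 (SE 0.13), for HLA-B 0.29 (SE 0.18) and for B2M 0.00 (SE 0.07). IFI35, an interferon-induced leucine zipper protein, was at 26.2, 31.8 and 30.1 CPM in WT BMP-off, at 27.2, 26.6 and 26.7 CPM in WT BMP-on, at 25.6, 21.9 and 28.6 CPM in KO BMP-off and at 31.5, 29.9 and 28.5 CPM in KO BMP-on, and its groups overlap in both responses. So the larger responses of HLA-C and EPSTI1 in KO were not shown to differ from those in WT. Without KO BMP-off replicate 3, and in a fit with no filter on low counts, HLA-C passed in the interaction (adjusted p between 0.0402 and 0.588 over its 23 alternatives). With the GC correction the difference was 0.31 for HLA-C (edgeR adjusted p = 0.252) and 0.22 for IFI35 (edgeR adjusted p = 0.201).

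**Figure D3:**
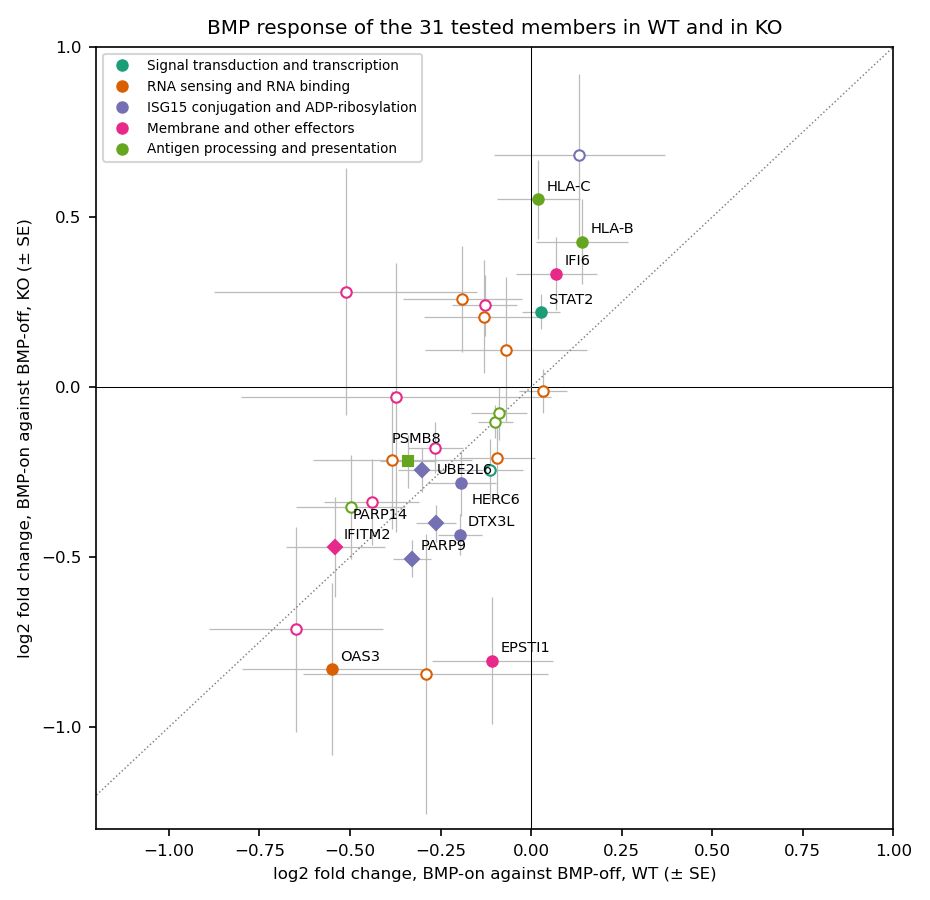
Log2 fold change of BMP-on against BMP-off in WT (x axis) and in KO (y axis) for the 31 tested members, ± SE, with filled symbols for members past the threshold in KO (circles), WT (square) or both (diamonds), colours for roles, and a dotted line of equal values. PARP9, PARP14, UBE2L6 and IFITM2 lie low on both axes, EPSTI1 is at -0.11 and -0.80, and HLA-C is at 0.02 and 0.55.

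MIB1 KO was compared with WT first while BMP signaling was held off. In that setting 0 of 31 members passed in edgeR, where 0.00582% of all tested genes were higher and 0.0349% lower. At an unadjusted p under 0.05, 1 member was higher and 5 lower, again with no share of all genes to set them against. DESeq2 and limma-voom called 0 members. The smallest adjusted p values belonged to the 3 IFITM genes, which lie close together on chromosome 11, with IFITM2 and IFITM1 643 bases apart. IFITM3 was at 106.4, 105.5 and 115 CPM in WT and at 93.7, 81.5 and 103 CPM in KO, with a log2 fold change of -0.23 (SE 0.07, edgeR adjusted p = 0.366). IFITM1 was at 1.08, 1.13 and 1.14 CPM in WT and at 0.628, 0.723 and 0.673 CPM in KO, with a log2 fold change of -0.72 (SE 0.24, edgeR adjusted p = 0.384). IFITM2 was at 6.72, 7.999 and 7.59 CPM in WT and at 6.39, 4.46 and 6.48 CPM in KO, with a log2 fold change of -0.36 (SE 0.14, edgeR adjusted p = 0.416). Their groups did not overlap, but the 3 were named for their small p values, so this adds nothing to the tests. None of the 3 passed, and reads of these closely related paralogs may be shared among them.

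With BMP-off the regulators STAT2 and IRF1 differed between KO and WT by -0.02 (SE 0.05) and 0.05 (SE 0.09) on the log2 scale. HLA-B, HLA-C and B2M differed by -0.03 (SE 0.13), -0.28 (SE 0.12, edgeR adjusted p = 0.445) and -0.01 (SE 0.05). With the GC correction the values were -0.12 for HLA-C and -0.12 for IFITM3 (edgeR adjusted p = 0.604 and 0.226). The median over the 31 members was -0.01, as it was over all tested genes.

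With BMP-on, 1 of 31 members (3.23%) was lower in KO than in WT and 0 were higher. Of all tested genes 2.34% were lower and 1.32% higher, so that the share of members that was lower was near that of all genes. Unadjusted, 5 members were lower and 5 higher, again with no share of all genes to set them against. The member past the threshold was EPSTI1, at 3.42, 2.74 and 3.56 CPM in WT and 2.07, 1.62 and 1.86 CPM in KO. The groups did not overlap, and the log2 fold change was -0.79 (SE 0.19, edgeR adjusted p = 0.0241), with the mean of KO at 57.2% of that of WT. The call was lost in 6 of 24 alternatives (adjusted p up to 0.113), namely without WT BMP-on replicate 1 or 3, without KO BMP-on replicate 2 or 3, and on log2 RPKM values with either pseudocount. Without WT BMP-on replicate 2 or KO BMP-off replicate 2 IFI6 passed too, which made 2 members. EPSTI1 had a mean of 75 counts per library.

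IFI6 was at 6.33, 7.42 and 6.00 CPM in WT BMP-on and at 9.16, 8.15 and 8.51 CPM in KO BMP-on, and STAT2 at 50.3, 51.7 and 53.5 CPM and at 60.2, 55.9 and 59.6 CPM. Both sets of groups were apart, and the log2 fold changes of 0.39 (SE 0.11, edgeR adjusted p = 0.0628) and 0.18 (SE 0.05, edgeR adjusted p = 0.0732) did not pass. With the GC correction 5 members passed, with IFI6, IFIT3 and STAT2 higher and EPSTI1 and IFITM3 lower, while 2.96% of all genes were higher and 4.46% lower. HLA-B, HLA-C, B2M and IRF1 differed by 0.26 (SE 0.12), 0.26 (SE 0.11), -0.02 (SE 0.05) and -0.08 (SE 0.09), with edgeR adjusted p values of 0.368, 0.315, 0.931 and 0.803. The comparisons with BMP-on and with BMP-off share their libraries with the responses above, so these values are not independent of them.

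**Figure D4:**
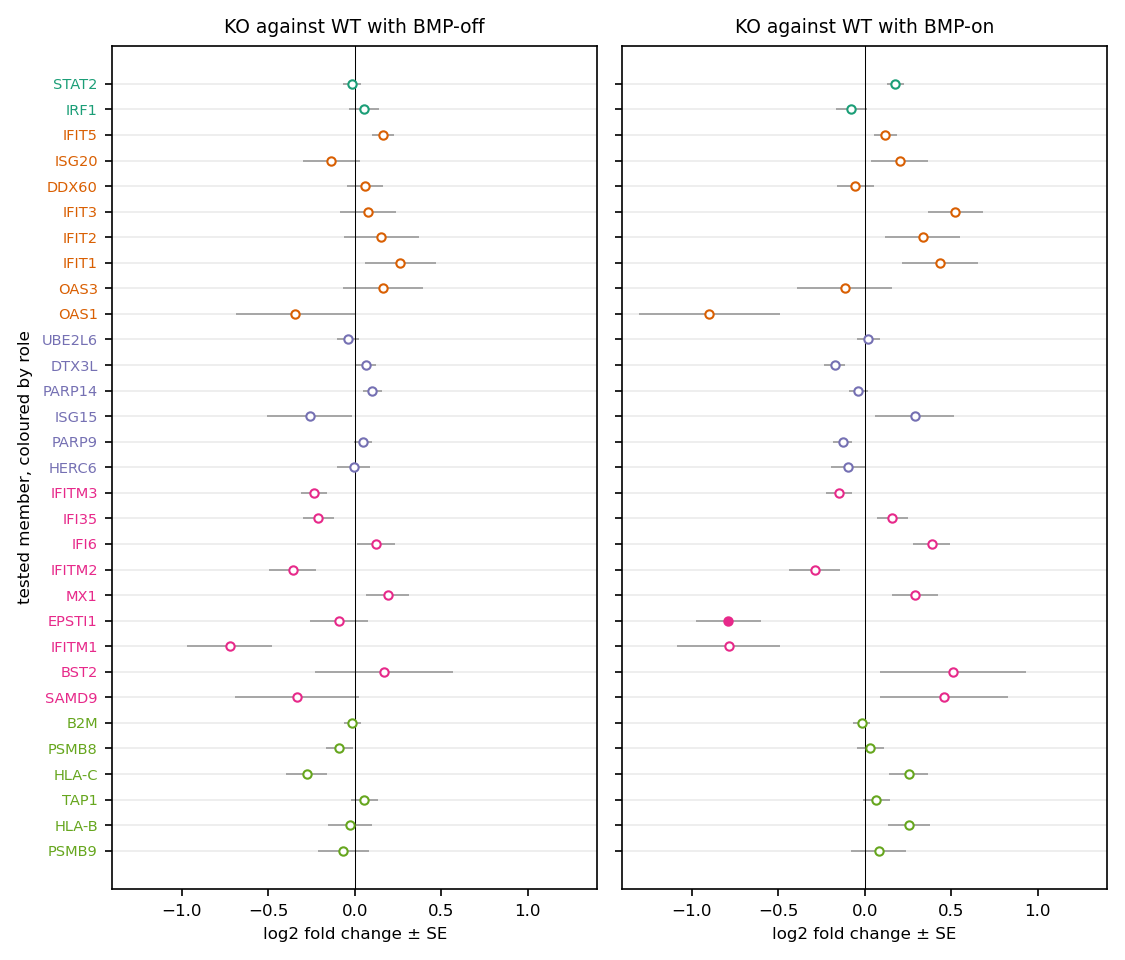
Log2 fold change ± SE of KO against WT for the 31 tested members, with BMP-off (left) and with BMP-on (right), in colours for roles and with filled symbols for members past the threshold. With BMP-off no symbol is filled, and with BMP-on only EPSTI1 (-0.79) is.

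The study's second condition, a log2 fold change of 1 or more in either direction, was met together with the adjusted p by 0 members in any of the 5 comparisons, in edgeR, DESeq2 and limma-voom alike, and 0 met it with an unadjusted p under 0.05. Over all tested genes it was met by 0.425% in the response of WT, 1.66% in the response of KO, 0.140% in the contrast of KO with WT under BMP-on, 0.0116% in that under BMP-off and 0.00% in the interaction. In the edgeR fit reported, the changes of the 31 tested members were all smaller than 2-fold (log2 fold change at most 0.90 in size). OASL, described above, was not among them.

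Other genes of the pathway were read from 6 lists with 94 genes, none of them a member. All 8 interferon genes listed (type I, II and III) were at the limit of detection, 5 with 0 counts in every library and the others with at most 1 count in any library. All 9 receptor and kinase genes were measured. In the KO response the receptor subunits IFNAR2 (log2 fold change 0.22, adjusted p = 0.0319) and IL10RB (0.31, adjusted p = 0.0331) rose and IFNGR2 (-0.15, adjusted p = 0.021) fell in edgeR, and 0 of 9 passed in the WT response. Over all tested genes 11.1% rose and 10.9% fell in the KO response, and 1.91% and 2.01% did in the WT response.

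Among the transcription factors and sensors listed, TLR3 (log2 fold change -0.83, edgeR adjusted p = 0.0474), the endosomal receptor for double-stranded RNA, and EIF2AK2 (-0.25, edgeR adjusted p = 0.00192), the kinase PKR, fell in the KO response. IRF3 rose by 0.54 (edgeR adjusted p = 0.0275), and its lowest value, 61.6 CPM, was again in KO BMP-off replicate 2. Among 21 tested genes of the list of other interferon-stimulated genes, 4 fell in the KO response and 0 rose, where 10.9% of all tested genes fell and 11.1% rose. They included the ubiquitin ligase TRIM25 (-0.38, edgeR adjusted p = 7.66e-05), the ISG15 ligase HERC5 (-0.29, edgeR adjusted p = 0.00567) and the signaling partner NMI (-0.25, edgeR adjusted p = 0.00357). None of the 21 passed in WT. With BMP-on, 1 of these 21 was higher in KO than in WT, SP110 (0.29, edgeR adjusted p = 0.0299), where 1.32% of all tested genes were.

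Of 19 tested genes of the list of other antigen presentation genes, 1 fell in the WT response, and 1 fell and 1 rose in the KO response. Of all tested genes 2.01% fell in the WT response, and 10.9% fell and 11.1% rose in the KO response. ERAP1, which trims peptides for HLA class I, fell in both, by 0.22 in WT (edgeR adjusted p = 0.0475) and by 0.29 in KO (edgeR adjusted p = 0.00225) on the log2 scale. Of 5 tested inhibitors of the pathway SOCS3 rose in the KO response (0.20, edgeR adjusted p = 0.0294). For none of the 6 lists did a gene pass in KO against WT with BMP-off or in the interaction by edgeR. In bulk RNA a lower value can reflect fewer cells that express a gene or less RNA per cell, and these cannot be told apart.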

How the data were processed

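Ribosomal reads were discarded by the authors, GSNAP placed the others on GRCh38, and HTSeqGenie counted those on exons. The authors deposited whole-number counts per Ensembl identifier and RPKM values. The methods name RefSeq annotation and give 2 library kits, and which kit was used is not given in the sources used here. The 40 members and all lists were chosen with earlier results of these data known.

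Counts of 17188 genes in 12 libraries (19124010 to 29498000 counts) were fitted with R 4.3.3 and edgeR 4.0.16, using TMM factors between 0.984 and 1.02, the default filter on low counts by group, and robust quasi-likelihood tests in 1 fit. p values were adjusted by Benjamini-Hochberg per comparison, and SEs are the log2 fold change divided by the root of F. A member passed at an adjusted p of at most 0.05. Values are given per library for members that passed (if more than 8, the 8 with the largest log2 fold changes and a mean of at least 50 counts), or for the 3 with the smallest adjusted p if fewer than 3 passed, and STAT2, IRF9, IRF1, HLA-B, HLA-C and B2M are always described. OAS3, HERC6, UBE2L6, STAT2, ISG15 and other members beyond that rule were named after their values were seen. Overlap of groups was described mostly for members named by their p values, so it is no support beyond the tests. The share of all genes without overlap is not given here. Up to 3 genes of each pathway list were also named, and some pathway genes are not reported here.

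In 24 alternatives the fit was repeated with limma-voom after quantile normalization (limma 3.58.1), DESeq2 1.42.0, 2 other scalings, 2 other filters on low counts, only the groups compared, a replicate block, a GC correction (lowess per library, span 0.4) with and without the block, log2(RPKM + 1) and log2(RPKM + 0.1) at a mean RPKM of at least 0.1, and each library left out. GC content was known for 99.4% of tested genes. The fits were also run on simulated data, and the outcome is not reported here. The floor given for XAF1 covers counting error only, whereas SEs and SDs include the spread between libraries, and 0 sample columns were left out.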

Additional observations from a re-analysis of the deposited data

How the results depend on the processing

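No alternative moved the median log2 fold change of the members in any of the 5 comparisons by more than 0.12. This limit is the SD, between libraries of a group, of the members' median log2 CPM, and is not a spread of fold changes. It is wide beside the medians of -0.19 in the WT response and -0.21 in the KO response. Members past the threshold in the WT response (5) numbered 9 with no filter on low counts, 10 with the GC correction and 8 with the GC correction and replicate block, and 1 to 9 with a library left out. Of all genes in that response, 1.58% rose and 1.45% fell with no filter. With the GC correction 3.92% and 4.92% did, and with the block added 3.65% and 4.48%. With a library left out 1.149% to 3.189% rose and 0.943% to 3.201% fell. Members past the threshold in the KO response (12) numbered 7 with only the groups compared and 7 to 14 with a library left out. Of all genes 7.03% rose and 8.11% fell with only the groups compared. With a library left out 6.03% to 16.3% rose and 7.19% to 14.1% fell. Members past it in KO against WT with BMP-on (1) numbered 4 with only the groups compared and 5 with the GC correction, with or without the block. They numbered 0 on log2 RPKM values with either pseudocount, and 0 to 2 with a library left out. Of all genes 3.26% were higher and 4.14% lower with only the groups compared, 2.96% and 4.46% with the GC correction, and 2.55% and 4.06% with the block added. On log2 RPKM values at most 0.756% were higher and 1.38% lower. With a library left out 0.645% to 1.96% were higher and 1.22% to 2.97% lower. With no filter on low counts 1 member passed with BMP-off (IFITM3) and 1 in the interaction (HLA-C), and the interaction had 0 to 1 with a library left out. Of all genes with no filter, 0.176% were higher and 0.497% lower with BMP-off, and 0.384% and 0.534% in the interaction. With a library left out the interaction had at most 0.491% higher and 1.10% lower. With a log2 fold change of 1 or more also required the counts were 0, and in the KO response 1 member met it in 3 alternatives (OASL with no filter, OAS3 without KO BMP-off replicate 2 or KO BMP-on replicate 3). Why these counts moved was not tested.

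Over the 31 tested members and 5 comparisons (155 values), 35 changed sign in at least 1 alternative, 0 of them past the threshold in the fit reported, and no turned value passed (smallest adjusted p 0.32). They include ISG15 in KO against WT with BMP-off (-0.26, at 0.04 in 1 alternative), OAS3 in KO against WT with BMP-on (-0.12, up to 0.08) and BST2 in the interaction (0.34, down to -0.08). HLA-C in the WT response (0.02) became -0.081 with the GC correction and -0.084 with the block added, and ran from -0.077 to 0.112 with a library left out. B2M in KO against WT with BMP-on became 0.028 in limma-voom, 0.0058 with library size alone, 0.0059 with the GC correction and 0.0062 with the block added, and ran from -0.054 to 0.0023 with a library left out. With BMP-off, STAT2 became 0.0031 in limma-voom, 0.0019 with the GC correction and 0.0017 with the block added, and B2M became 0.012 in limma-voom. In that comparison a library left out gave -0.032 to 0.0045 for STAT2, -0.15 to 0.075 for HLA-B and -0.045 to 0.039 for B2M. B2M in the interaction became 0.016 in limma-voom, 0.014 with library size alone, 0.066 with the GC correction and 0.066 with the block added, and ran from -0.059 to 0.024 with a library left out.

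Same-numbered libraries had a correlation of residuals above 0.1 in 2 of 18 pairs (range -0.187 to 0.189). This cannot decide whether the numbers pair the samples, because pairs with different numbers were not computed beside them. With the replicate block 4 members passed in the WT response, 10 in the KO response, 1 in KO against WT with BMP-on and 0 in the other comparisons. Of all genes in that fit, 1.577% rose and 1.501% fell in the WT response, and 10.4% and 9.52% did in the KO response. In KO against WT with BMP-on 1.03% were higher and 1.76% lower. In the other comparisons at most 0.0175% were higher and 0.0291% lower. Depth limits the 9 untested members and those with few counts, OAS3 among them.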
